A study of Mus musculus with 6 samples.

Results

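The mitochondrial genome of the mouse carries 37 genes, and all 37 were listed on chromosome MT of the deposited atrial RNA-seq table, which holds 43432 genes in total. They are 13 messenger RNA (mRNA) genes, 2 ribosomal RNA (rRNA) genes and 22 transfer RNA (tRNA) genes. RNA of right and left atria came from WT mice of strain C57/Bl6J, with no transgene or deletion in either group. There were 3 samples from mice on a high-fat diet (HFD) and 3 from mice on control chow (Control diet), in each case for 10 weeks from 6 weeks of age. The diet of each sample was read from its title, which carries the same code as its column in the table, and the columns are named Case and Control in the same way. The treatment field gives the opposite diet for all 6 samples, so if that field were right every direction below would be reversed. The labels do not say whether each sample was 1 animal or a pool. Each sample is called a mouse below, and p-values here measure only the spread between the samples.

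Mitochondrial DNA is a small circle transcribed from both strands into long precursor RNAs. The tRNA genes sit between most of the others, and cutting the tRNAs out frees the rRNAs and mRNAs. All of the proteins encoded there are core subunits of the respiratory chain or of ATP synthase, and the rRNAs and tRNAs serve only to translate them inside the organelle. Every other subunit, and the whole machinery that copies and transcribes this DNA, is encoded in the nucleus. Cardiac myocytes are packed with mitochondria, so these transcripts are abundant in heart RNA. In a tissue sample, fewer myocytes and less mitochondrial RNA per myocyte cannot be told apart.

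The sequences shown first are those of the genes on which the comparison turns, read on the coding strand from GENCODE M21 transcripts of build GRCm38. Sequences were found there for all 37 genes. The isoleucine tRNA gene mt-Ti (ENSMUSG00000064342) lies at chrMT:3706-3774 on the + strand, and the glutamine tRNA gene mt-Tq (ENSMUSG00000064343) at chrMT:3772-3842 on the - strand, so that they overlap by 3 bases on opposite strands. The glutamate tRNA gene mt-Te (ENSMUSG00000064369) lies at chrMT:14071-14139 on the - strand. Capitals mark the anticodon, the triplet that reads the codon, in these 3 tRNA genes.
mt-Ti: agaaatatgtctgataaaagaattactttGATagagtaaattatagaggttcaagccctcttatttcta
mt-Tq: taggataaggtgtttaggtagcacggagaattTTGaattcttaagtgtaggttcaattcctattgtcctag
mt-Te: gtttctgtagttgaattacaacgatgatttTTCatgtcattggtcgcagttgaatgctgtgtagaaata

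The ATP synthase subunit gene mt-Atp8 (ENSMUSG00000064356) spans 204 bases at chrMT:7766-7969 on the + strand. Its last 43 bases, in capitals, are also the first bases of mt-Atp6, which reads them in another frame.
mt-Atp8: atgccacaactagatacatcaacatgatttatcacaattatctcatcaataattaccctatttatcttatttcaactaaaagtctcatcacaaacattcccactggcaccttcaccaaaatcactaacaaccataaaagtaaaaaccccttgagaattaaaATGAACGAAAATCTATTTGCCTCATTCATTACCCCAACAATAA

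The complex I subunit gene mt-Nd4l (ENSMUSG00000065947) spans 297 bases at chrMT:9877-10173 on the + strand. It is shown because most of it is repeated in the nuclear genome. Capitals mark the 294 bases that lie in 50-base windows identical to the annotated nuclear pseudogene Gm10222 on chromosome 1.
mt-Nd4l: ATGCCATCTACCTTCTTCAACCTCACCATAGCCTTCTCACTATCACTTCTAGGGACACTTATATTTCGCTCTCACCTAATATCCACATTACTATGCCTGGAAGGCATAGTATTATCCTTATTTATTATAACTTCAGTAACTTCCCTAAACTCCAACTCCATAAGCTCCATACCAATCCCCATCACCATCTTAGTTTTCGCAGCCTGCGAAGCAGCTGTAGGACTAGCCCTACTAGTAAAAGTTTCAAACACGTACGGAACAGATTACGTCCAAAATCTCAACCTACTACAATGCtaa

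The libraries held 15874251 to 28971508 reads, the deepest being that of Control diet mouse 2. Of 24679 genes with any read, 15275 had a mean normalized count of at least 10 and were tested together. All marker genes of cardiomyocytes (7) and atrial myocytes (5) were detected, as the tissue label says. Control diet mouse 2 stood apart in several RNA classes, and values without that mouse are given beside the main results that rest on it.

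A large part of all atrial reads lay on the mitochondrial genes. Their share of all reads was 24.3%, 22.5% and 19.5% in HFD mice 1 to 3 and 23.8%, 30.7% and 24.4% in Control diet mice 1 to 3. The group means were 22.1% ± 2.41 (SD, n = 3) and 26.3% ± 3.79 (SD, n = 3), a difference of -4.19 percentage points. HFD mouse 1 lay inside the range of the controls, so the groups overlapped. The 95% Wilson interval of a single share was at most ±0.021 percentage points and covers counting error only, so the spread between mice was far wider than the counting error. Without Control diet mouse 2 the difference was -2.01 percentage points.

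The mRNA genes took the largest portion. They held 19.8%, 17.4% and 15.5% of all reads in the HFD mice and 19.7%, 20.8% and 20.1% in the Control diet mice. HFD mice 2 and 3 were below all controls and HFD mouse 1 was not. The rRNA genes held 3.97% to 4.99% of all reads in 5 of the 6 mice and 9.72% in Control diet mouse 2. The tRNA genes held 0.097% to 0.129% across all 6 mice, with no separation of the diets.

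**Figure D1:**
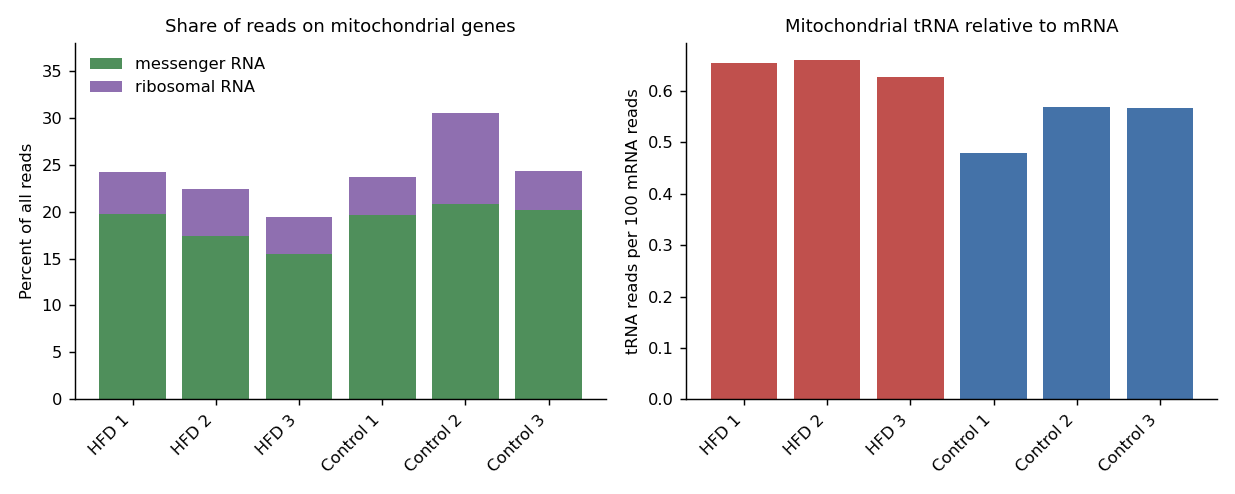
Left, percent of all reads on mitochondrial mRNA and rRNA genes in each mouse, stacked from 0 (tRNA genes, at most 0.129%, are left out). Right, reads on mitochondrial tRNA genes per 100 reads on mitochondrial mRNA genes in each mouse. Control diet mouse 2 carries the tallest bar on the left, with 9.72% on rRNA, and the 3 HFD bars on the right (0.628 to 0.661) all exceed the Control diet bars (0.480 to 0.568).

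Levels differed widely between genes that are cut from the same precursors. Per kilobase of gene, mt-Co1, the catalytic subunit of complex IV (cytochrome c oxidase), had the highest mean level, 570567 normalized counts per kilobase, and it exceeded mt-Co2 in 6 of 6 mice and mt-Rnr2 in all mice but Control diet mouse 2. The levels of mt-Co2 (535231), mt-Rnr2 (532083) and mt-Atp6 (514448) per kilobase followed, and no order among these 3 held in all mice. Without Control diet mouse 2 mt-Rnr2 averaged 423161. Then came mt-Co3 (345024), mt-Cytb of complex III (322292) and mt-Nd4 of complex I (293328). The lowest mRNA genes per kilobase, on the mitochondrial rows alone, were mt-Atp8 (77127), mt-Nd3 (54436) and mt-Nd4l (32735). With the nuclear copies described below added, mt-Nd3 and mt-Nd4l stood at 101220 and 114697, above mt-Atp8, and mt-Atp6 (579828) was slightly above mt-Co1 (570714). The gene mt-Nd6, the sole mRNA gene of the light strand, stood at 162718 per kilobase.

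Among tRNA genes the levels spanned a far wider range. Per kilobase, mt-Ts1 stood at 144105, above the rRNA gene mt-Rnr1 (123386), while mt-Tf averaged 9.49 and had at most 4 reads in any library. The 6 tRNA genes with the highest level per kilobase (mt-Ts1, mt-Te, mt-Ty, mt-Tc, mt-Tn and mt-Tq) all belong to the light strand, as do 8 of the 22. These 8 took 91.6% to 92.5% of tRNA reads in the HFD mice and 93.3% to 93.7% in the Control diet mice, a lower share in every HFD mouse than in every control. An exact permutation test (two-sided, 3 against 3) gave p = 0.1, the smallest it can give. The libraries were prepared with a directional kit, but whether the counting used strand is not given in the sources used here. Without strand, reads of such a gene and reads of a heavy-strand precursor across the same bases cannot be told apart. Reads of 50 bases on genes of 59 to 75 bases can also come from uncut precursors as well as from the tRNA itself.

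In the comparison of the diets, none of the 34 mitochondrial genes tested passed an adjusted p of 0.05 with limma, against a background of 0.746% of all genes (114 of 15275). At an unadjusted p under 0.05 there were 5 of 34, against 12.2% of all genes: 3 lower in HFD (background 5.55%) and 2 higher (background 6.66%). The remaining 3 genes (mt-Tf, mt-Tv and mt-Td) had means under 10 and were not tested. With edgeR's quasi-likelihood test on recovered reads 0 genes passed, while 0.57% of all genes passed. At an unadjusted p under 0.05 edgeR had 6 of 34, against 12.2% of all genes. With DESeq2, 3 mitochondrial genes passed (mt-Atp8, mt-Te and mt-Nd6, all lower in HFD), against a background of 3.08% of all genes. At an unadjusted p under 0.05 DESeq2 had 11 of 34, against 11.3% of all genes.

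All 13 mRNA genes had a log2 fold change (HFD over Control diet) below 0, as had 49.2% of all genes tested. Their median was -0.31, from -0.48 to -0.05, and the median of all genes tested was 0.00. Of these 13, mt-Nd1, mt-Co2, mt-Atp8, mt-Nd4, mt-Nd5, mt-Nd6 and mt-Cytb were lower in every HFD mouse than in every control, that is 7 genes. Adding mt-Te gives 8 of 34 lower without overlap (background 9.17%), and 2 of 34, mt-Ti and mt-Tq, were higher without overlap (background 8.86%), or 10 of 34 in either direction (background 18.0%). The 13 mRNA genes share precursors and size factors and are not independent. The direction depended on the scaling for some of them: under quantile normalization mt-Nd2, mt-Co1, mt-Co3 and mt-Cytb were at 0.14, 0.13, 0.00 and 0.03, and with counts scaled to the total of all reads mt-Nd4l was at 0.03. Quantile normalization gives every library the same set of values. It keeps only differences of rank and cannot show a shared shift of the most abundant genes. In Control diet mouse 2 mt-Rnr2 (1703328) ranked above mt-Co1 (1056654), unlike in the other mice. Without Control diet mouse 2, mt-Nd3 was at 0.02 and mt-Nd4l at 0.10, and without HFD mouse 3 mt-Nd4l was at 0.05.

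**Figure D2:**
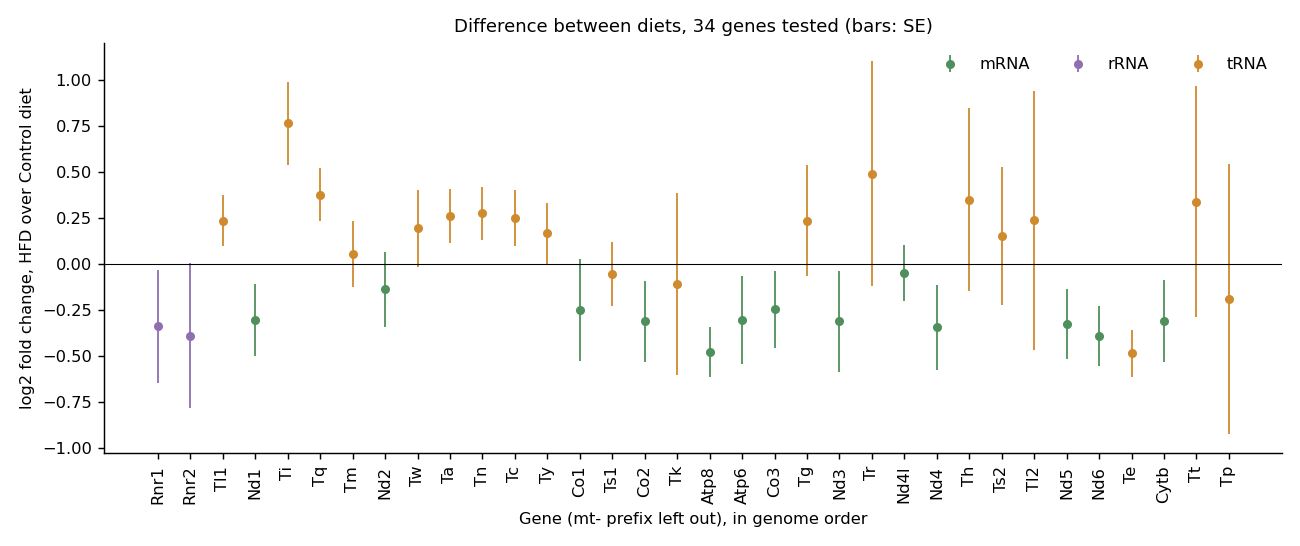
Log2 fold change, HFD over Control diet, of the 34 genes tested, in genome order and coloured by RNA class, with bars of 1 SE from limma. The mRNA and rRNA points all lie below 0, and 15 of the 19 tRNA points lie above 0.

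Of the mRNA genes, mt-Atp8 had the lowest p. It encodes a small subunit of the membrane part of ATP synthase. Its normalized counts were 14920, 12850 and 11706 in the HFD mice and 18186, 19961 and 16781 in the Control diet mice. Every HFD value was below every control value, and the log2 fold change was -0.48 ± 0.13 (SE), with an adjusted p of 0.147 (limma). DESeq2 gave an adjusted p of 0.0149.

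The light-strand neighbours mt-Nd6 and mt-Te lie end to end, at chrMT:13552-14070 and chrMT:14071-14139, and are cut from the same precursor. The complex I subunit gene mt-Nd6 (ENSMUSG00000064368) had normalized counts of 80905, 74199 and 64416 in HFD and 92213, 99836 and 95135 in Control diet. The HFD values were again all below the controls, with a log2 fold change of -0.39 ± 0.16 (SE) and a limma adjusted p of 0.361. For mt-Te, whose sequence is shown above, the normalized counts were 2852, 2699 and 2226 in HFD and 3387, 3519 and 3967 in Control diet. This gene was the lowest of all 34 by fold change, at -0.49 ± 0.13 (SE), with a limma adjusted p of 0.116, and the groups did not overlap. DESeq2 gave adjusted p-values of 0.0489 for mt-Nd6 and 0.019 for mt-Te.

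The overlapping tRNA genes mt-Ti and mt-Tq were higher in HFD. The normalized counts of mt-Ti were 361, 377 and 326 in HFD and 148, 292 and 209 in Control diet. The log2 fold change of mt-Ti was 0.76 ± 0.22 (SE), the largest among the 34 genes, with a limma adjusted p of 0.167. For mt-Tq, on the other strand, the normalized counts were 1265, 1001 and 957 in HFD and 804, 928 and 743 in Control diet, with a log2 fold change of 0.38 ± 0.14 (SE) and a limma adjusted p of 0.318. In both genes the lowest HFD mouse exceeded the highest control, for mt-Tq by little.

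**Figure D3:**
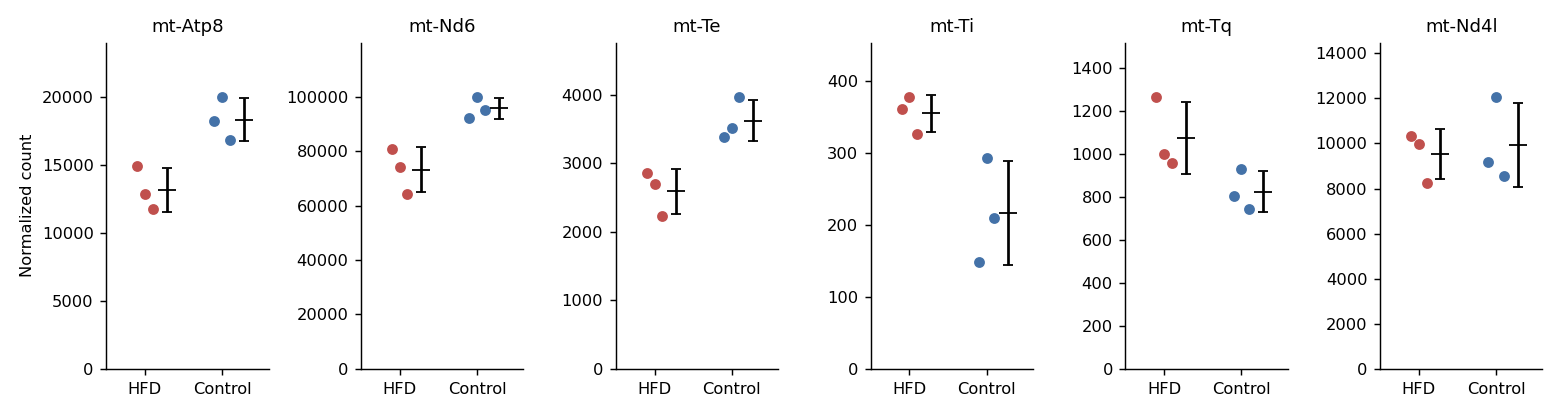
Normalized counts of 6 genes in each HFD mouse (red) and Control diet mouse (blue), with axes from 0, the mean and bars of 1 SD. The groups separate for mt-Atp8, mt-Nd6, mt-Te, mt-Ti and mt-Tq, and overlap for mt-Nd4l.

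The other complex I genes had limma adjusted p-values of 0.544 or more. The first complex I gene on the heavy strand, mt-Nd1, had normalized counts of 215481, 191797 and 176920 in HFD and 224682, 264580 and 232344 in Control diet, with a log2 fold change of -0.31 ± 0.20 (SE, limma adjusted p = 0.591). The counts of mt-Nd2 were 240650, 210254 and 181849 against 224821, 249017 and 219313, and HFD mouse 1 exceeded 2 of the 3 controls (-0.14 ± 0.20, adjusted p = 0.841). The largest log2 difference of the other complex I genes on the heavy strand was that of mt-Nd4, whose counts were 399587, 355877 and 313710 against 431065, 497645 and 427354 (-0.35 ± 0.23, adjusted p = 0.604). For mt-Nd5 the counts were 190789, 193947 and 173112 against 215444, 249336 and 235437 (-0.33 ± 0.19, adjusted p = 0.544), with every HFD mouse below the controls.

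Complexes III and IV showed similar log2 differences. The cytochrome b gene mt-Cytb, the sole mitochondrial subunit of complex III, had normalized counts of 369759, 314372 and 304011 in HFD and 411270, 434919 and 377883 in Control diet (-0.31 ± 0.22, limma adjusted p = 0.63). Of the complex IV genes, mt-Co1 had counts of 908958, 762678 and 743745 against 915016, 1056654 and 902110 (-0.25 ± 0.28, adjusted p = 0.772). HFD mouse 1 lay among the controls for mt-Co1 and below them for mt-Cytb. The counts of mt-Co2, which carries a copper centre that accepts electrons from cytochrome c, were 360329, 309412 and 309925 against 390674, 442244 and 384005 (-0.31 ± 0.22, adjusted p = 0.625). Those of mt-Co3, the third core subunit, were 277599, 237851 and 226613 against 266476, 326584 and 287872 (-0.25 ± 0.21, adjusted p = 0.696). In complex V, mt-Atp6, a part of the proton channel, had counts of 359156, 316308 and 264149 against 325512, 447082 and 389830 (-0.31 ± 0.24, adjusted p = 0.664), with overlap.

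The mice of 1 diet differed in a way that ran across genes. HFD mouse 3 was the lowest of the 6 mice for 12 of the 13 mRNA genes, and Control diet mouse 2 was the highest for 13 of 13. Over all genes tested, HFD mouse 3 was lowest for 19.0% and Control diet mouse 2 highest for 15.7%. Leaving out HFD mouse 3 gave a median mRNA log2 fold change of -0.24, and leaving out Control diet mouse 2 gave -0.24 as well. HFD mouse 3 also had the highest summed normalized counts of the cardiomyocyte markers (950556, against 581826 to 867678 in the other mice) and of the atrial myocyte markers (518575, against 285064 to 480118). Of the cardiomyocyte markers, its Actc1 count was the highest (201539, against 48472 to 100697), while it lay below every control for Tnnt2 (99709), Tnni3 (49850) and Pln (21463).

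Control diet mouse 2 set the level of both rRNA genes. The small rRNA gene mt-Rnr1 had normalized counts of 99788, 105787 and 90964 in HFD and 93444, 223603 and 93416 in Control diet. For the large rRNA gene mt-Rnr2 they were 670462, 757618 and 624049 in HFD and 642482, 1703328 and 652595 in Control diet. The other 5 mice were close together, and Control diet mouse 2 stood at 2.39 and 2.63 times the mean of Control diet mice 1 and 3. Among all genes tested 2.43% reached 2 times by this measure. The log2 fold changes of -0.34 ± 0.31 for mt-Rnr1 (adjusted p = 0.718) and -0.39 ± 0.39 for mt-Rnr2 (adjusted p = 0.748) became 0.08 and 0.07 without this mouse.

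The same mouse was high in some noncoding RNAs encoded in the nucleus, which were looked up after its rRNA values were seen. Small nuclear RNA genes took 0.0484% of its reads, against 0.0184% to 0.0249% in the others. Its microRNA share was not high (0.0224%, against 0.0201% to 0.0235%). The RNA component of the signal recognition particle, Rn7s1 (its count nearly equals that of its copy Rn7s2, so the split between them is uncertain), had 73800 normalized counts in this mouse against 26509 to 32190 in the others, and Rn7sk had 22065 against 7864 to 9346. The RNA of RNase MRP, Rmrp, and that of RNase P, Rpph1, stood at 2.73 and 2.95 times the mean of Control diet mice 1 and 3. Its ventricular marker sum was also the highest, at 14823 against 5025 to 8195. The part of these in the rRNA result was not tested. The ratio of mt-Rnr2 to mt-Rnr1 was 6.72 to 7.16 in HFD and 6.88 to 7.62 in Control diet, so the 2 rRNAs of this mouse were high together.

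**Figure D4:**
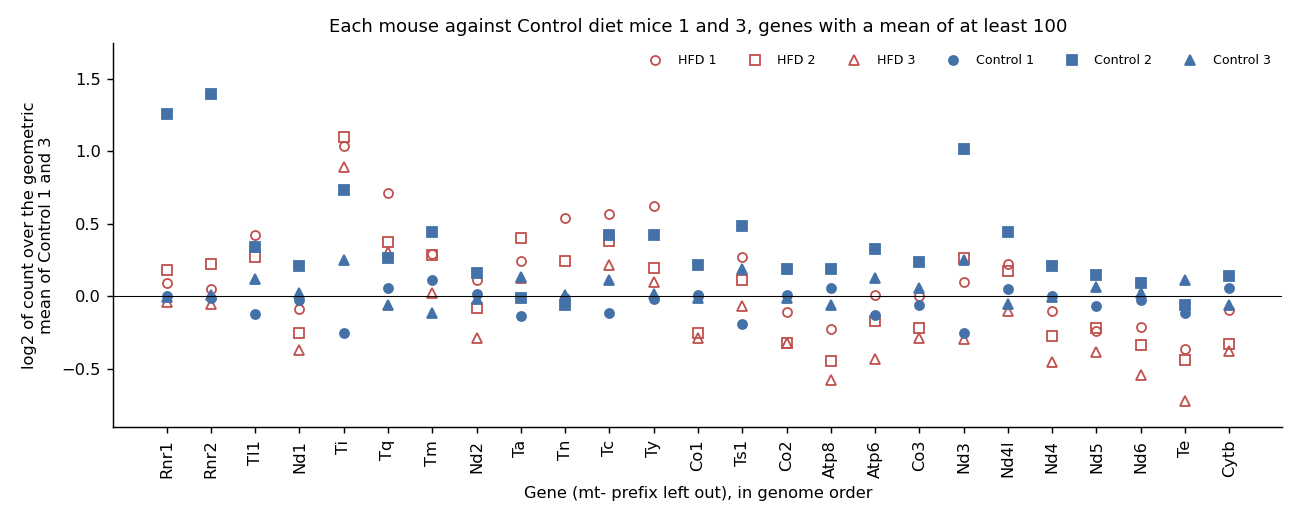
Log2 of the normalized count in each mouse over the geometric mean of Control diet mice 1 and 3, for the 25 mitochondrial genes with a mean of at least 100, in genome order. Control diet mouse 2 (filled squares) lies far above the other mice for mt-Rnr1, mt-Rnr2 and mt-Nd3, and open symbols (HFD) fall mostly below 0 for mRNA genes and mostly above 0 for tRNA genes.

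Most tRNA genes tested had log2 fold changes of the opposite sign to those of the mRNA genes. Of 19 tested, 15 had a log2 fold change above 0, as had 50.8% of all genes tested, and their median was 0.23, from -0.49 to 0.76. None passed the adjusted threshold. As a share of all reads, the tRNA genes together averaged 0.114% in HFD and 0.109% in Control diet, with overlap. The mRNA genes averaged 17.5% and 20.2%, also with overlap. Relative to mitochondrial mRNA, which removes the scaling between libraries, there were 0.654, 0.661 and 0.628 tRNA reads per 100 mRNA reads in HFD and 0.480, 0.568 and 0.566 in Control diet. Every HFD mouse was above every control, and so it was without mt-Ts1, which alone took 46.1% to 53.5% of tRNA reads (0.322 to 0.340 against 0.259 to 0.282). With and without mt-Ts1 the exact permutation test (two-sided, 3 against 3) gave p = 0.1, the smallest it can give.

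Most of the abundant tRNA genes leaned the same way. The counts of mt-Tc, the cysteine tRNA gene, were 1841, 1618 and 1439 in HFD and 1147, 1664 and 1342 in Control diet (log2 fold change 0.25 ± 0.15, limma adjusted p = 0.572). Those of mt-Tn, the asparagine tRNA gene, were 1449, 1181 and 985 against 991, 956 and 1002 (0.28 ± 0.14, adjusted p = 0.492). In mt-Ta, the alanine tRNA gene, they were 325, 363 and 299 against 250, 272 and 301 (0.26 ± 0.15, adjusted p = 0.53). In each of these 3 genes the diets overlapped through 1 or more mice.

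The other tRNA genes overlapped as well. The counts of mt-Tl1, a leucine tRNA gene, were 722, 651 and 687 in HFD and 495, 682 and 587 in Control diet (0.23 ± 0.14, limma adjusted p = 0.56). Those of mt-Ty, the tyrosine tRNA gene, were 2289, 1698 and 1590 against 1465, 1988 and 1504 (0.17 ± 0.17, adjusted p = 0.747), and of mt-Tm, the methionine tRNA gene, 255, 254 and 212 against 226, 283 and 192 (0.05 ± 0.18, adjusted p = 0.944). The serine tRNA gene mt-Ts1 had 10828, 9674 and 8545 against 7834, 12557 and 10221 and was close to no difference (-0.06 ± 0.17, adjusted p = 0.935). The 9 tested tRNA genes with means between 10.8 and 99.9 (mt-Tw, mt-Tk, mt-Tg, mt-Tr, mt-Th, mt-Ts2, mt-Tl2, mt-Tt and mt-Tp) had log2 fold changes from -0.19 to 0.49, 7 of them above 0, and overlapped in every case. The limma values were 0.19 ± 0.21 (SE, adjusted p = 0.767) for mt-Tw (tryptophan), -0.11 ± 0.50 (0.961) for mt-Tk (lysine), 0.23 ± 0.30 (0.814) for mt-Tg (glycine), 0.49 ± 0.61 (0.809) for mt-Tr (arginine) and 0.35 ± 0.50 (0.836) for mt-Th (histidine). They were 0.15 ± 0.37 (0.917) for mt-Ts2 (serine), 0.24 ± 0.70 (0.934) for mt-Tl2 (leucine), 0.34 ± 0.63 (0.88) for mt-Tt (threonine) and -0.19 ± 0.74 (0.952) for mt-Tp (proline). The error exceeded the difference in each of these 9 genes. The 3 genes under the filter on the mean held 0 to 12 reads in any library.

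As shares of all mitochondrial reads, mRNA genes took 77.3% to 81.3% in HFD and 67.9% to 82.5% in Control diet, and rRNA genes 18.2% to 22.2% and 17.1% to 31.7%, in both cases with overlap and with the extreme value in Control diet mouse 2. The tRNA share was 0.498% to 0.532% in HFD and 0.386% to 0.467% in Control diet, higher in every HFD mouse. For this share the exact permutation test (two-sided, 3 against 3) gave p = 0.1, the smallest it can give. Adjusted by Benjamini-Hochberg over 11 shares and ratios, it was 0.55. Light-strand genes together held 2.28% to 2.40% and 2.00% to 2.62%. By complex, the shares of mitochondrial reads differed by 0.37 percentage points (HFD minus Control diet) for complex I, 0.01 for complex III, 1.25 for complex IV and 0.03 for complex V, all with overlap. Without Control diet mouse 2 these differences were -1.36, -0.65, -0.87 and -0.30, and those of the mRNA and rRNA shares were -3.17 and 3.09.

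Within the mRNA reads the make-up by complex differed little between the diets. Complex I genes held 33.4% to 35.1% of mitochondrial mRNA reads in HFD and 33.99% to 34.4% in Control diet, and complex IV genes 43.5% to 45.9% and 43.8% to 44.4%. Complexes III (10.4% to 10.9% and 10.5% to 11.6%) and V (9.88% to 10.9% and 9.71% to 11.3%) overlapped too. The shares of 4 of the 13 genes did not overlap between the diets. Among all genes tested, the normalized counts of 18.0% did not overlap. The share of mt-Nd2 was 6.98%, 6.99% and 6.51% in HFD and 6.35%, 6.03% and 6.10% in Control diet, higher in every HFD mouse. That of mt-Atp8 was 0.433%, 0.427% and 0.419% against 0.514%, 0.483% and 0.467%, lower in every HFD mouse. The shares of mt-Nd4 (11.2% to 11.8% against 11.9% to 12.2%) and mt-Nd4l (0.296% to 0.332% against 0.238% to 0.292%) were the other two that did not overlap among the 13. For each of these 4 genes the exact permutation test (two-sided, 3 against 3) gave p = 0.1, the smallest it can give, and the 13 shares add up to the whole, so they are not independent. After Benjamini-Hochberg adjustment over the 13 shares this p was 0.325 for each of the 4. The ratio of mt-Atp8 to the overlapping mt-Atp6 was 0.041 to 0.044 in HFD and 0.043 to 0.056 in Control diet. Most of the sequence of mt-Atp6 is shared with a nuclear copy described below, Gm10925, whose highest count (79321) was in Control diet mouse 1. That mouse also had the highest ratio (0.056), and the ratio with the copy added was not taken.

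Several of the mitochondrial genes share most of their sequence with copies in the nuclear genome. Of the 50-base windows of each mRNA gene, 100% in mt-Co2, 99.9% in mt-Co3, 99.5% in mt-Atp6, 98.8% in mt-Nd4l, 98.0% in mt-Nd3, 62.2% in mt-Nd4 and 51.1% in mt-Co1 also occurred in an annotated nuclear transcript, either strand. In mt-Nd2 and mt-Nd5 the share was 8.19% and 7.61%, and in mt-Nd1, mt-Atp8, mt-Nd6 and mt-Cytb it was 0. For 4 of these genes the deposited table gave sizeable counts to both members of the pair, although the methods state that uniquely mapped reads were used. How reads that fit both were divided is not given in the sources used here, so the split between such a gene and its copy is uncertain. The pseudogene Gm10222 held 18509 to 32733 normalized counts, more than mt-Nd4l itself (8264 to 12056) in 6 of 6 mice. Gm28438, a copy of mt-Nd3, held 11919 to 20280, and Gm10925, a copy of mt-Atp6, held 29785 to 79321 with its highest value in Control diet mouse 1. The copy with the most counts was Gm28437, of mt-Co3, at 75103 to 117470, or 23.9% to 28.5% of the sum with its gene. Some other copies held few, such as Gm28661 of mt-Co2 (12 to 101). Gm28439 of mt-Nd4 was at 0 in 5 of the 6 mice and at 4141 in HFD mouse 3.

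Adding the annotated copies to their gene, a step chosen after these values were seen, moved 3 genes most. For mt-Nd4l the sums were 31891, 29350 and 26774 in HFD and 38740, 44789 and 32848 in Control diet. They no longer overlapped, and the log2 fold change went from -0.05 ± 0.15 to -0.40 ± 0.15 (limma adjusted p = 0.33). With both genes summed, the ratio of mt-Nd4l to mt-Nd4 changed from 0.026 to 0.028 against 0.020 to 0.024, higher in every HFD mouse, to 0.080 to 0.084 against 0.077 to 0.090, with overlap. So the higher share of mt-Nd4l in HFD was present in the mitochondrial row alone and not in the sum.

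For mt-Nd3, the counts of the gene alone were 17073, 19149 and 12969 in HFD and 13339, 32161 and 18973 in Control diet (-0.31 ± 0.27, limma adjusted p = 0.711; 0.02 without Control diet mouse 2), with Control diet mouse 2 at 1.99 times the mean of Control diet mice 1 and 3. With the copy added the counts were 37353, 32353 and 26754 against 31837, 44079 and 38972, and this mouse stood at 1.245 times. Of the rRNA genes, mt-Rnr1 shared no window with an annotated copy and mt-Rnr2 shared 1.04%. For mt-Atp6 the sums were 397621, 346093 and 309102 against 404833, 486330 and 425200. HFD and Control diet then did not overlap, at a log2 fold change of -0.33 ± 0.23 (adjusted p = 0.619). With all copies added, 0 of 34 mitochondrial genes passed with limma (0.753% of all genes did), 6 had an unadjusted p under 0.05 (12.2% of all genes), and the 13 mRNA genes had a median of -0.31.

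**Figure D5:**
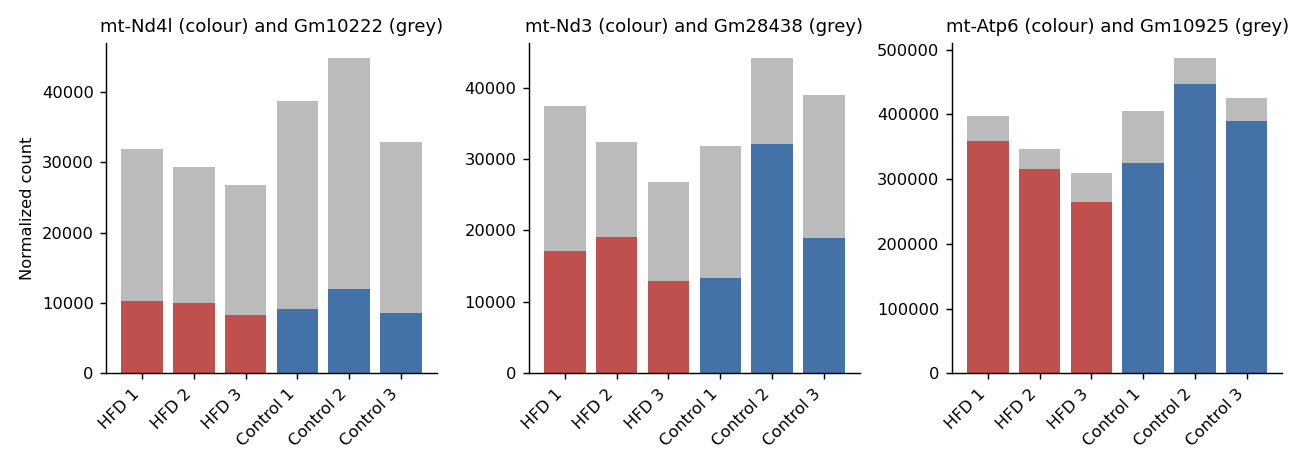
Normalized counts in each mouse of mt-Nd4l, mt-Nd3 and mt-Atp6 (red, HFD, and blue, Control diet) with those of their annotated nuclear copy stacked in grey, from 0. The grey portion is 65.9% to 76.3% of the bar for mt-Nd4l, 27.0% to 58.1% for mt-Nd3 and 8.07% to 19.6% for mt-Atp6.

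The nuclear partners of these genes were examined from lists of subunits and factors. Of 38 nuclear complex I subunit genes 37 had a log2 fold change below 0 (median -0.12), as had 8 of 9 in complex III (-0.14), 14 of 16 tested in complex IV (-0.17) and 13 of 15 in complex V (-0.12). All 4 subunit genes of complex II, which has no mitochondrial gene, were also below 0 (-0.14). Of all genes tested 49.2% were below 0. The summed counts overlapped between the diets in each of these subunit lists. For complex I they were 106637 to 130033 in HFD and 119361 to 141741 in Control diet. None of these subunit genes passed the adjusted threshold with limma. The smallest p belonged to Cox7c, a small complex IV subunit, with 440, 377 and 628 normalized counts in HFD and 767, 1265 and 920 in Control diet (-1.03 ± 0.22, adjusted p = 0.0657); it passed with DESeq2 and with no filter on the mean. The log2 ratio of summed mitochondrial to summed nuclear counts of a complex overlapped between the diets in all 4 complexes, for example 2.84 to 3.31 in HFD and 3.17 to 3.37 in Control diet for complex I.

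Genes of mitochondrial gene expression gave no call either. Tfam, which packages mitochondrial DNA and starts its transcription, had 563, 537 and 534 normalized counts in HFD and 595, 582 and 637 in Control diet (-0.15 ± 0.12, limma adjusted p = 0.661). Polrmt, the mitochondrial RNA polymerase, was at -0.01 ± 0.13 (adjusted p = 0.983). Its elongation factor Tefm had 185, 159 and 196 in HFD and 264, 285 and 252 in Control diet (-0.57 ± 0.16, adjusted p = 0.139), lower in every HFD mouse. In all, 7 of the 10 transcription genes tested were below 0 (median -0.11).

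In the list of mitochondrial DNA replication and nucleotide supply, 9 of 15 genes were above 0 (median 0.17), led by Lig3, the ligase of mitochondrial DNA, at 0.53 ± 0.18 (limma adjusted p = 0.25). Among 20 genes of RNA processing and stability 13 were below 0 (median -0.12), and Lrpprc, which stabilizes mitochondrial mRNA, was at -0.20 ± 0.14 (adjusted p = 0.61). Among 11 translation factors 9 were below 0, with Tufm, the elongation factor, at -0.38 ± 0.15 (adjusted p = 0.326). Of 8 regulators of mitochondrial biogenesis 6 were above 0, with Ppargc1a, a coactivator that drives it, at 0.39 ± 0.17 (adjusted p = 0.391). Of 13 genes of protein quality control and fusion 7 were above 0, with Clpx, of a matrix protease, at 0.55 ± 0.19 (adjusted p = 0.25). Over these lists and the complexes, 0 of 159 genes tested passed with limma, and 13 had an unadjusted p under 0.05, 6 higher and 7 lower, where 12.2% of all genes did, 6.66% higher and 5.55% lower.

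Summed markers of some cell types separated between the 2 diets, and those of others overlapped. The summed normalized counts of 6 adipocyte markers were 5879 to 10687 in HFD and 3232 to 5563 in Control diet, with 5 of 6 above 0. Most of that sum was Fabp4, and without it the sums overlapped (482 to 1866 and 283 to 1335). Of 3 brown adipocyte markers tested, 2 passed with limma, Ucp1 (adjusted p = 0.0446) and Cidea (adjusted p = 0.031), both higher in HFD. Of all genes tested 0.746% passed. Without a variance trend 0 genes passed, so these 2 calls depended on that setting. All 5 endothelial markers were above 0 (sums of 13328 to 14926 in HFD and 11105 to 12007 in Control diet, overlapping without Pecam1 at 7706 to 8667 and 6999 to 7988). So were 4 of 5 macrophage markers, with overlapping sums (8218 to 10095 in HFD and 6314 to 8531 in Control diet). The 5 lymphocyte markers were too low to be tested. Sums of fibroblast, mesothelial and erythroid markers overlapped, and none of those genes passed with limma. Of 7 cardiomyocyte markers 6 were below 0 (sums of 581826 to 950556 in HFD and 846906 to 867678 in Control diet), and of 5 atrial myocyte markers 4 were below 0. Their part in the mitochondrial values was not tested.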

How the data were processed

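The authors sequenced directional libraries of atrial RNA with 50-base single-end reads, aligned them to GRCm38 with STAR, kept uniquely mapped reads, quantified genes with Salmon on Ensembl release 79 and compared groups with DESeq2, as their methods state (versions are not given in the sources used here). The table gives counts to near-identical gene copies, and how reads that fit several genes were divided is not given in the sources used here. The deposited signal values are gene counts that the authors divided by a DESeq2 size factor for each sample. They came out as whole reads (within 0.01 of a read) for 100% of values once divided by the worth of 1 read, and these recovered reads gave depths and shares. The table also holds the authors' own comparison (mean, fold change, its error, statistic, p, adjusted p, and a ranking metric), which was not used. Of its rows 1 names no gene and holds 0% of reads. Symbols were matched for 42462 of 43432 identifiers (97.8%).

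The diets were compared with limma 3.58.1 (R 4.3.3; lmFit, then eBayes with trend = TRUE) after adding 1 to each normalized count and taking log2, over 15275 genes with a mean of at least 10, with Benjamini-Hochberg adjustment over all of them and no covariate. A fold change on this scale understates that of low genes. edgeR 4.0.16 and DESeq2 1.42.0 on recovered reads were alternatives. No p was given for summed normalized counts. Single shares and ratios, including those built on reads summed over several members, were compared with an exact permutation test. Every mitochondrial gene was accounted for. From the lists of nuclear subunits and factors, genes were named only if past the threshold or with the smallest p of their list. Tfam, Polrmt, Lrpprc and Ppargc1a were named in any case. Marker genes, nuclear copies and noncoding RNAs encoded in the nucleus were named outside this rule. Those noncoding RNAs were picked after the rRNA values of Control diet mouse 2 were seen. Nuclear copies were found as 50-base windows shared with GENCODE M21 transcripts, not with the whole genome. On simulated counts with changes the limma test recovered 49 of 97 genes changed 2-fold and 84 of 98 changed 4-fold, with 10 false calls, over 15103 genes. Changes under 2-fold, the size seen in all mitochondrial genes tested (log2 from -0.49 to 0.76), were not simulated. The genes and lists were chosen with earlier results of these data known. Other settings tried were another pseudocount, filter, normalization and variance model, the replicate number as a block, and leaving out each mouse.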

Additional observations from a re-analysis of the deposited data

How the results depend on the processing

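With limma, edgeR and every alternative scaling, filter and pseudocount, 0 mitochondrial genes passed the adjusted threshold; DESeq2 called 3 and had 11 at an unadjusted p under 0.05. All genes called numbered 0 without a variance trend, 470 with DESeq2, and 14 (without Control diet mouse 2) to 318 (without HFD mouse 3) when 1 mouse was left out, which gave 3 to 6 mitochondrial genes at an unadjusted p under 0.05. Of the nuclear list genes 1, Cox7c, passed without a filter and 1, again Cox7c, with DESeq2, and 0 to 2 did with 1 mouse left out (Cox7c and Clpx without HFD mouse 3). The mRNA median was -0.078 under quantile normalization, with mt-Nd2 at 0.14, mt-Co1 at 0.13, mt-Co3 at 0.00034 and mt-Cytb at 0.028. That setting keeps only differences of rank between genes. With counts scaled to all reads, mt-Ts1 was at 0.021 and mt-Nd4l at 0.027, while the median of all genes shifted to 0.08. Among log2 fold changes with 1 mouse left out, mt-Rnr1 ran from -0.55 to 0.079, mt-Rnr2 from -0.63 to 0.075, mt-Nd3 from -0.61 to 0.025, mt-Nd4l from -0.15 to 0.10, mt-Tm from -0.079 to 0.20 and mt-Ts1 from -0.23 to 0.11, and for the low tRNA genes mt-Tk from -0.37 to 0.21, mt-Th from -0.15 to 0.92, mt-Ts2 from -0.13 to 0.38, mt-Tl2 from -0.27 to 0.80, mt-Tt from -0.16 to 0.63 and mt-Tp from -0.73 to 0.30. Among shares of mitochondrial reads with 1 mouse left out, the difference in percentage points ran from -3.17 to 4.09 for mRNA, -4.20 to 3.09 for rRNA, -0.22 to 0.093 for light-strand genes, -1.36 to 1.27 for complex I, -0.65 to 0.57 for complex III, -0.87 to 2.45 for complex IV and -0.30 to 0.53 for complex V. Relative to mRNA reads, complexes I, III and V were at -0.22, -0.20 and -0.22. With nuclear copies summed, the ratio of mt-Nd4l to mt-Nd4 differed by -0.0034. The cause of these changes was not tested beyond the setting itself. The difference in the tRNA share of mitochondrial reads (HFD minus Control diet) stayed above 0 throughout, from 0.08 to 0.12 percentage points with 1 mouse left out. Of 438 log2 fold changes of single genes with all mice, 429 kept direction and call. The filter, variance and block settings leave a fold change as it is, so much of this agreement was fixed in advance. It is no measure of robustness.

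The labels do not say that samples of the same replicate number share a litter, batch or day, and their deviations correlated at 0.12, -0.03 and -0.00, so the numbers were not taken as pairs. With the replicate number as a block, 157 of all genes and 0 mitochondrial genes passed, and 4 had an unadjusted p under 0.05.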
